A study of Xenopus laevis with 72 samples.

Results

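The data set asks what was left of the transcriptional response to a short retinoic acid (RA) pulse once frog embryos had recovered from it for 3 h. Whole wildtype embryos of Xenopus laevis were kept for 2 h, between stage 9.5 and stage 10.25, in 10 nM all-trans RA, washed, and collected 3 h later. They were set against embryos labelled control, of the same clutches and at the same time. The compared samples were chosen by their labels alone, as all RA and all control samples taken at 3 h, which gave 6 RA and 6 control samples, 12 of the 72 samples of the series. The other samples are of the same 6 clutches, named G to L, at 0, 1.5 and 4.5 h after the wash, or were treated with 50 uM DEAB, an inhibitor of the retinaldehyde dehydrogenases that make RA. Each clutch is 1 set of siblings that gave all its treatments and times, and each sample is a pool of 5 to 10 embryos. The RA stock was made in DMSO, and whether control embryos received DMSO is not stated in the labels. A panel of 23 target genes and the reference gene gapdh was read by high-throughput quantitative PCR. A pool of whole embryos does not tell fewer expressing cells from less transcript per cell.

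RA is made from vitamin A in steps. Retinol is oxidised to retinaldehyde by retinol dehydrogenases such as rdh10, and retinaldehyde is oxidised to RA by the aldh1a enzymes. The pathway is drained by dhrs3, which reduces retinaldehyde back to retinol, and by the cyp26 hydroxylases, which degrade RA. RA binds nuclear receptors that switch on target genes, among them anterior hox genes, and in many vertebrates also cyp26a1 and dhrs3 themselves. X. laevis is allotetraploid, and many genes are present as an L and an S copy from its subgenomes.

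Values are log2 levels relative to gapdh with the median of the gene over the 72 samples set to 0, and a higher value means more transcript. They show where a gene stands against its own median and do not rank genes by abundance. Threshold cycles (Ct) of the compared samples lay between 10.49 and 25.32, and 2 values were missing, both of hoxd3.L. A Ct does not give the depth of a measurement, so the precision comes from the 6 clutches. The gapdh Ct was 13.65, 14.06, 12.87, 14.96, 13.28 and 12.76 in the RA samples of clutches G to L, against 13.51, 14.77, 12.49, 14.07, 13.80 and 13.17 in the controls. It was higher under RA in 3 clutches and lower in 3, with a mean difference of -0.04 ± 0.61 cycles (SD, n = 6; exact two-sided sign-flip test, p = 0.906). Clutch H had the highest control level of 6 in 18 of 22 genes and clutch L the lowest in 9. Clutch J had the largest RA minus control difference of the 6 clutches in 15 of 22 genes, with a median of 1.07 over the genes against -0.18 to 0.46 in the other clutches. Its control sample rose less between 1.5 and 3 h than those of the other clutches, by a median of 0.94 against 1.32 to 1.81, and lay at or below its own 1.5 h level in 5 genes. The gapdh Ct of clutch J was higher under RA by 0.89, the largest shift of the 6 clutches. This shift adds 0.89 to the RA minus control difference of every gene in J. The gapdh shifts of G, H, I, K and L, at 0.14, -0.71, 0.38, -0.52 and -0.41, enter the differences of those clutches in the same way. Results that rest on clutch J are therefore given also without it.

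At 3 h the RA embryos held more transcript of cyp26c1.L, cyp26c1.S and dhrs3.L, genes whose products remove RA or its precursor, than their control siblings. In limma 4 of the 23 target genes, 17.4% of those tested, were higher under RA and 0 (0%) were lower at an adjusted p under 0.05. They were both copies of the RA hydroxylase gene cyp26c1, the retinaldehyde reductase gene dhrs3.L and 1 hox target. The list of retinaldehyde reduction and RA degradation had 3 of its 7 genes past the threshold, the hox targets had 1 of 6, RA synthesis 0 of 5, and binding and transport 0 of 4. The median difference was 0.75 for reduction and degradation, 0.64 for hox targets, 0.05 for synthesis and -0.04 for binding and transport, beside 0.16 over all target genes. The study picked the panel and its hox targets for their tie to RA, and its metabolic genes were divided here into the other lists with earlier results known, so such counts give no independent support for a direction. Of the 22 genes with a value in all 12 samples, 7 (31.8%) were higher under RA in 6 of 6 clutches and 0 (0%) were lower in all. Of these 7, 5 were genes of reduction and degradation and 2 were hox targets. In 0 of the 22 genes (0%) were the RA and control samples fully separated. The count of 4 was 0 without clutch J, 0 with no reference gene, 0 when the clutch block was dropped, 1 (cyp26c1.L) with the panel mean in place of gapdh and 2 without clutch L. In the fit of the 12 compared samples alone it was 8, and 4 when clutch J was left out of that fit, a setting chosen after seeing the data.

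**Figure D1:**
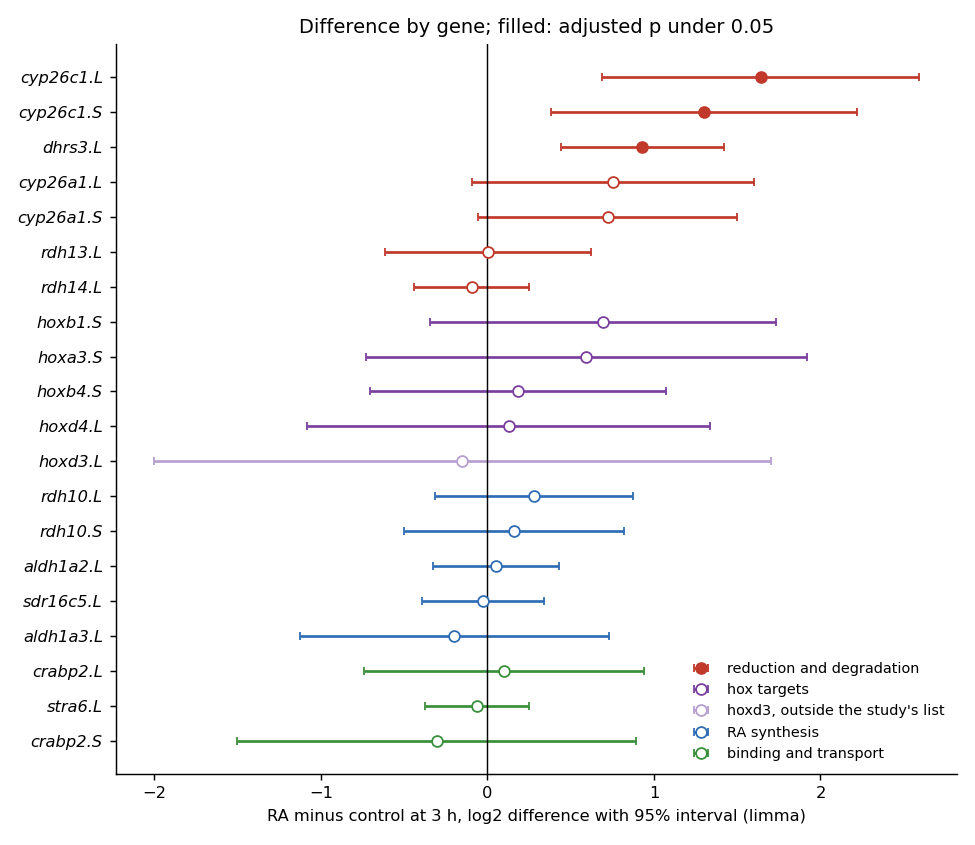
Difference of RA minus control at 3 h for 20 target genes, as points with 95% intervals from limma on the log2 scale (x axis), by gene (y axis) and coloured by list. Filled points mark an adjusted p under 0.05, reached among these genes by cyp26c1.L at 1.64, cyp26c1.S at 1.30 and dhrs3.L at 0.93.

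cyp26c1.L (gene ID 108696124) showed the largest difference of the panel. Its level was 1.56, 3.78, 2.55, 0.95, 1.94 and 1.65 in the RA samples of clutches G to L, against -0.63, 2.64, 1.15, -0.96, 0.03 and 0.35 in the controls. Clutch H was the highest and clutch J the lowest in both groups, and the control of H lay above 5 of the 6 RA samples. Within clutches the difference ran from 1.14 in H to 2.19 in G, and the mean of 1.64 (SE 0.48, 95% interval 0.69 to 2.59) is a 3.12-fold higher level (limma, adjusted p = 0.0115). The SD was 0.42 for the 6 differences, but 0.99 for the RA levels and 1.31 for the control levels. Differences thus varied less from clutch to clutch than the levels they were taken from. Without clutch J the difference was 1.59 and did not pass (adjusted p = 0.0829), and in the fit of the compared samples alone without J it did (adjusted p = 2.67e-04).

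The S copy, cyp26c1.S (gene ID 735026), was also higher under RA in every clutch. It had 1.39, 3.21, 2.68, 1.32, 1.44 and 1.89 in the RA samples of clutches G to L, against 0.04, 2.34, 0.95, 0.73, -0.14 and 0.21 in the controls. Clutch H was again highest in both groups, and its control lay above 4 of the 6 RA samples. The difference ran from 0.59 in J to 1.73 in I and averaged 1.30 (SE 0.46, 95% interval 0.38 to 2.22), or 2.46-fold (limma, adjusted p = 0.0369). This call was the least firm of those named, since it ended without clutch G (1.29, adjusted p = 0.0726), I (1.21, 0.121), J (1.44, 0.0829) or L (1.22, 0.150), with the direction kept in each.

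dhrs3.L (gene ID 444269) had the smallest SE of the genes past the threshold and the smallest adjusted p. That SE takes its spread from all 72 samples. The SD of the 6 clutch differences at 3 h was 0.72 for dhrs3.L, larger than 0.42 for cyp26c1.L and 0.47 for cyp26c1.S. It stood at 1.56, 1.90, 1.37, 1.75, 0.85 and 0.88 in the RA samples of clutches G to L, against 0.90, 1.26, 0.78, -0.60, 0.49 and -0.11 in the controls. The control of clutch J was the lowest of the 12 samples, while its RA sample was the highest but one. The difference was 0.36 to 0.98 in 5 clutches and 2.34 in J, and averaged 0.93 (SE 0.24, 95% interval 0.44 to 1.42), or 1.90-fold (limma, adjusted p = 0.00813). Without clutch J it was 0.65 (adjusted p = 0.0829), and 0.0199 was the adjusted p without J in the fit of the compared samples alone.

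**Figure D2:**
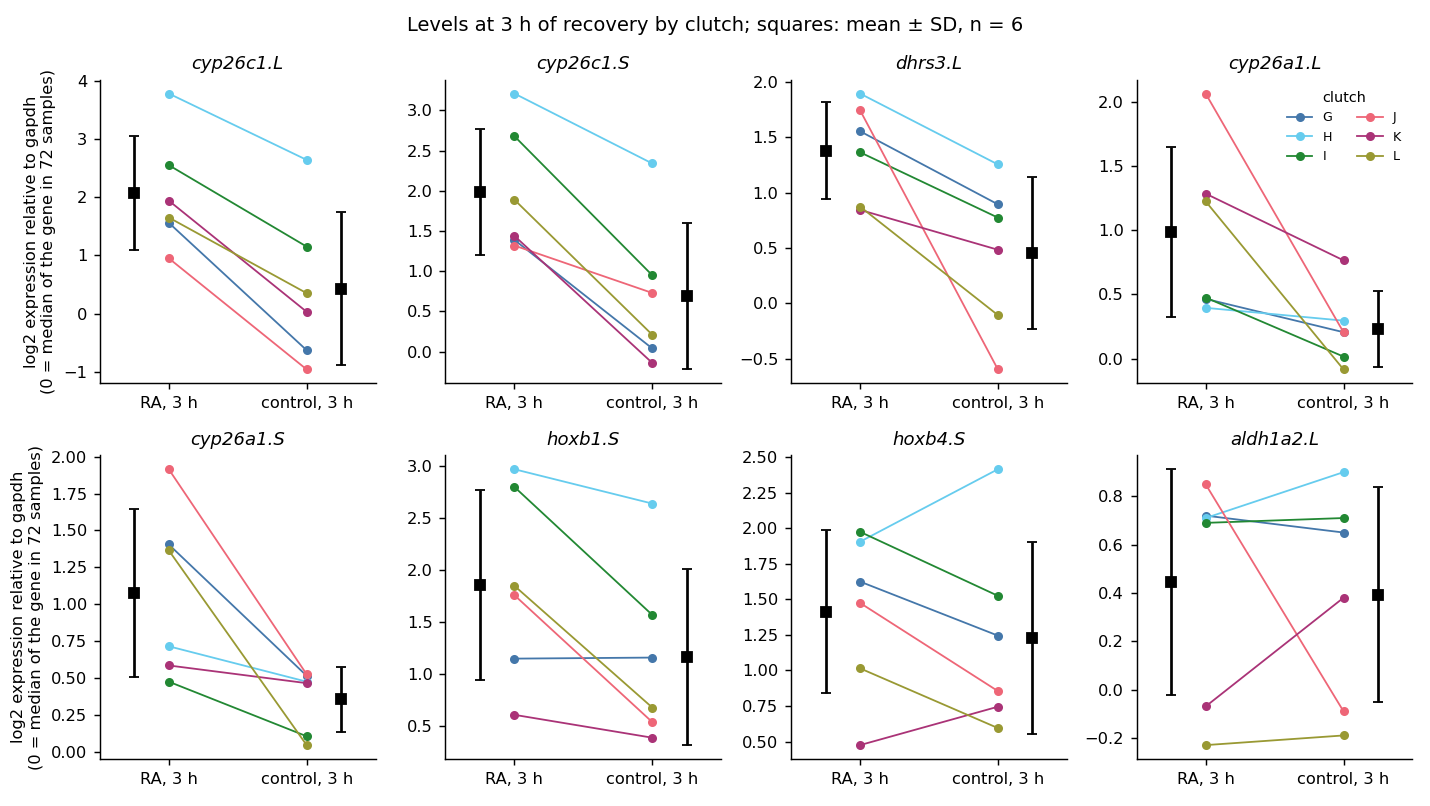
Levels of 8 genes at 3 h in the RA and control sample of each clutch (x axis), joined by a line, in log2 relative to gapdh (y axis). Squares and bars are the mean and SD of 6 clutches. Every line of cyp26c1.L, cyp26c1.S, dhrs3.L, cyp26a1.L and cyp26a1.S is higher at its RA end, whereas those of hoxb4.S and aldh1a2.L run both ways.

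Both copies of cyp26a1, the other RA hydroxylase gene of the panel, were higher under RA in 6 of 6 clutches without passing the test. cyp26a1.L (gene ID 496314) had 0.47, 0.40, 0.48, 2.07, 1.29 and 1.23 in the RA samples of clutches G to L, against 0.21, 0.30, 0.02, 0.21, 0.77 and -0.09 in the controls. Clutches J and L, with 1.86 and 1.31, held the larger differences, and those of G, H, I and K were 0.10 to 0.52. The mean was 0.75 (95% interval -0.09 to 1.60; limma, adjusted p = 0.309). For cyp26a1.S (gene ID 398094) the RA samples ran from 0.48 to 1.92 with a median of 1.04, and the controls from 0.05 to 0.53 with a median of 0.47. The difference was 0.12 to 0.37 in H, I and K and 0.89 to 1.39 in G, J and L, with a mean of 0.72 (95% interval -0.06 to 1.50; adjusted p = 0.309). Both copies passed in the limma fit of the 12 compared samples alone, which takes the spread from these samples (adjusted p = 0.0478 for L and 0.0472 for S), and also in the fit of the 18 samples of 3 h (0.0104 and 0.00926). Without clutch J the 12-sample fit gave 0.0802 for L and 0.0772 for S. The retinol dehydrogenase genes rdh13.L and rdh14.L, listed with this group, differed by 0.005 and -0.10 and were higher in 2 of 6 clutches each.

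In RefSeq's table of assembly Xenopus_laevis_v10.1 cyp26a1.L and cyp26c1.L are neighbours with 0 protein-coding genes between them, and so are the S copies. The neighbours were therefore compared within each sample, a comparison chosen after their values were seen, in which gapdh cancels. At 3 h the RA response of cyp26c1.L exceeded that of cyp26a1.L by 0.89 ± 0.76 (SD, n = 6), in 5 of 6 clutches (exact sign-flip test, p = 0.0625), and that of cyp26c1.S exceeded cyp26a1.S by 0.58 ± 0.82 (exact p = 0.156). At 0 h the mean was negative, at -0.90 ± 2.11 for L (unadjusted exact p = 0.344) and -1.69 ± 1.23 for S (0.0625). Clutch G alone was positive, at 3.01 and 0.39. Its cyp26a1.L level under RA at 0 h was -4.725, against -0.545 to 0.095 in the other clutches. At 1.5 h the mean gap was -0.18 for L and -0.20 for S. At 4.5 h it was 0.99 ± 0.41 for L, positive in 6 of 6 clutches (unadjusted exact sign-flip p = 0.03125). For S it was 0.26 ± 2.59 at 4.5 h, positive in 4 of 6. From 0 to 3 h the gap between neighbours changed by 1.79 for L, up in 5 of 6 clutches (exact p = 0.0625). For S it changed by 2.26 ± 1.22, up in 6 of 6 (exact p = 0.03125, the smallest that 6 clutches allow). Adjusted over the 4 tests of the gap at 3 h and of its change, the last value was 0.0833 in this exact sign-flip test. None passed, and none could unless most of the 4 reached the smallest p.

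The hox targets, which encode homeobox proteins that pattern the head-to-tail axis, were more divided among clutches than the genes of reduction and degradation. The median SD of the clutch differences was 0.63 against 0.52, beside 0.60 over all target genes. It was 0.68 for RA synthesis and 0.61 for binding and transport, so this spread is not particular to hox targets. Of the 6 hox targets 2 were higher under RA in 6 of 6 clutches, and 1 passed the threshold. hoxb1.S (gene ID 108702519) ran from 0.61 to 2.97 with a median of 1.81 in the RA samples, against 0.39 to 2.64 with a median of 0.92 in the controls. Relative to gapdh the clutches fell apart, with differences of 1.17 to 1.23 in I, J and L and of -0.01 to 0.33 in G, H and K. Each includes the gapdh shift of its clutch (0.14, -0.71, 0.38, 0.89, -0.52 and -0.41 in G to L), so this grouping depends on the reference. The mean was 0.69 (SE 0.52; limma, adjusted p = 0.536, or 0.0478 in the fit of the compared samples alone, 0.0802 in that fit without clutch J, and 0.0812 with the 18 samples of 3 h). hoxb4.S (gene ID 734796) ran from 0.48 to 1.98 under RA with a median of 1.55, against 0.60 to 2.42 with a median of 1.05 in controls. It differed by -0.51 to 0.62 and by 0.18 on average, higher in 4 of 6 clutches (95% interval -0.71 to 1.07; adjusted p = 0.969). hoxa3.S had the widest spread of the complete genes, from -2.17 in H to 3.12 in L, around a mean of 0.59 (SD 1.91; adjusted p = 0.860). hoxd4.L differed by 0.13, higher in 3 of 6 clutches, or by -0.05 without clutch J. For its neighbour hoxd3.L the RA sample of G and the control of H gave no value, and the 4 complete pairs differed by -0.22, -2.37, 0.29 and -0.41.

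None of the genes that make RA passed the threshold, with mean differences of -0.20 to 0.28. Larger differences are not excluded for some of them. The 95% intervals were -1.13 to 0.73 for aldh1a3.L, -0.31 to 0.87 for rdh10.L and -0.50 to 0.82 for rdh10.S. aldh1a2.L (gene ID 399389), the retinaldehyde dehydrogenase gene of the early embryo, had 0.72, 0.71, 0.69, 0.85, -0.07 and -0.23 in the RA samples of clutches G to L, against 0.65, 0.90, 0.71, -0.09, 0.38 and -0.19 in the controls. Clutch J differed by 0.94 and the other clutches by -0.45 to 0.07, with a mean of 0.05 (95% interval -0.33 to 0.43), or -0.13 without J. The retinol dehydrogenase genes rdh10.L and rdh10.S differed by 0.28 and 0.16, with 1.75 and 1.79 in clutch J and nothing above 0.73 elsewhere, and without J by -0.01 and -0.17. aldh1a3.L and sdr16c5.L differed by -0.20 and -0.03, and aldh1a3.L stood at -1.35 in clutch G. In the list of binding and transport, crabp2.L and crabp2.S, which encode a cellular RA-binding protein, differed by 0.10 and -0.31 (-0.10 and -0.08 without J), and stra6.L, which encodes a receptor for retinol-binding protein, by -0.06.

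**Figure D3:**
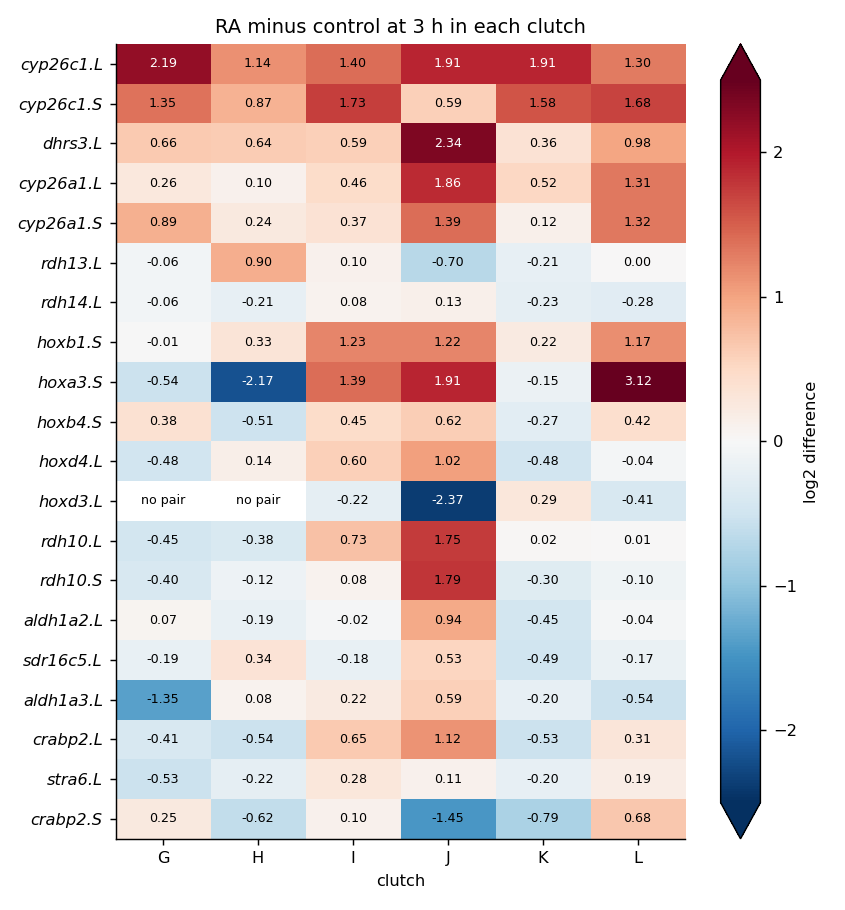
RA minus control at 3 h in log2 units (colour and printed value) for 20 target genes (rows, ordered by list as in the plot of differences) in each clutch (columns). Cells without 2 values read "no pair". The top 5 rows are above 0 in every clutch, and clutch J holds 1.75 and 1.79 for the rdh10 copies and 2.34 for dhrs3.L.

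Whether the L and S copies of a gene responded unequally was tested on the L minus S value of each sample. Of 5 pairs 0 (0%) passed in limma. The gap in response was 0.34 for cyp26c1 (95% interval -0.54 to 1.22) and 0.41 for crabp2 (-0.80 to 1.61). Clutch J stood at 2.57 for crabp2, and without J the gaps were 0.15 for cyp26c1, -0.03 for crabp2, -0.06 for cyp26a1 and 0.15 for rdh10. With all clutches the gap was 0.03 for cyp26a1 (-0.74 to 0.80) and 0.12 for rdh10 (-0.62 to 0.86), and gaps within these bounds are not excluded by the 6 clutches. Whether the primers tell the copies apart was not tested here.

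The difference at 3 h was then set against those at the other times, each of which has its own control samples. Relative to 0 h, 2 genes (8.70%) had a smaller RA difference at 3 h and 0 (0%) a larger one. That of dhrs3.L was smaller by 1.75 (limma estimate -1.75, adjusted p = 5.01e-05). The other gene, hoxd3.L, had values at 0 h in no clutch with both an RA and a control sample, so its estimate crosses clutches. Its 0 h levels were 5.35, 2.62 and 9.45 under RA, against -2.26 and -4.16 in controls, and whether the RA values are sound was not tested. cyp26a1.L and cyp26a1.S changed by -0.91 and -1.37 and did not pass (limma, adjusted p = 0.436 and 0.0890). Without clutch G the count was 4, with both cyp26a1 copies added (-1.59 for L and -1.74 for S), and with the panel mean as reference 1 gene changed upward and 3 downward. Relative to 1.5 h, 1 gene (4.35%) had a smaller difference and 0 (0%) a larger one, again dhrs3.L (-1.34, adjusted p = 0.00640). It passed with each clutch left out, and without G cyp26a1.L passed as well (-1.70), but dropping the clutch block, scaling to the panel mean or using no reference gene left 0 genes. cyp26a1.L and cyp26a1.S changed by -1.76 and -1.45 in that step and missed the threshold (limma, adjusted p = 0.0548 and 0.0815). The differences of cyp26c1.L and cyp26c1.S changed by -0.68 and -0.67 (adjusted p = 0.851 for each), and from 0 to 3 h by 0.87 and 0.89 (adjusted p = 0.457 and 0.450). From 3 to 4.5 h the difference became larger in 0 genes (0%) and smaller in 0 (0%), with 0 at an unadjusted p under 0.05 in limma.

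Levels relative to gapdh were then followed in each group. Between 1.5 and 3 h the control embryos gained 1.60 in dhrs3.L (limma, adjusted p = 1.91e-07), while the RA embryos differed by 0.26 (adjusted p = 0.365). cyp26a1.L likewise gained 1.29 in controls (adjusted p = 0.00627) and changed by -0.47 under RA (adjusted p = 0.365), and cyp26a1.S gained 1.19 in controls (adjusted p = 0.00627) and changed by -0.27 under RA (adjusted p = 0.540). cyp26c1.L kept rising in both, by 2.20 under RA and 2.88 in controls, and cyp26c1.S by 1.91 under RA and 2.59 in controls. The narrowing of dhrs3.L thus came with a rise of the controls toward the RA level, and no fall of the RA level passed the test for dhrs3.L or the cyp26a1 copies. Over all 23 target genes the median control step was 1.60 and the median RA step 0.83. The control gains of dhrs3.L and the cyp26a1 copies thus did not exceed the panel median and are not particular to these genes. The control step was called higher in 16 of the 23 genes and the RA step in 10. The RA step was lower in 1, rdh13.L (-0.73, limma, adjusted p = 0.0441). All these levels are relative to gapdh, whose Ct enters every step. In mean Ct, where higher means less transcript, cyp26a1.L went from 12.32 to 13.30 under RA and from 14.72 to 14.09 in controls. cyp26a1.S went from 10.84 to 11.615 and from 12.91 to 12.375, and dhrs3.L from 12.58 to 12.82 and from 14.74 to 13.79. Which group moved more thus depends on the reference for the cyp26a1 copies, while for dhrs3.L it was the controls both relative to gapdh and in Ct. Against the panel, however, the control gain of dhrs3.L was at the median of 1.60. Its RA step of 0.26 lay below the RA median of 0.83. Which group moved more relative to the panel mean was not tested for dhrs3.L.

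**Figure D4:**
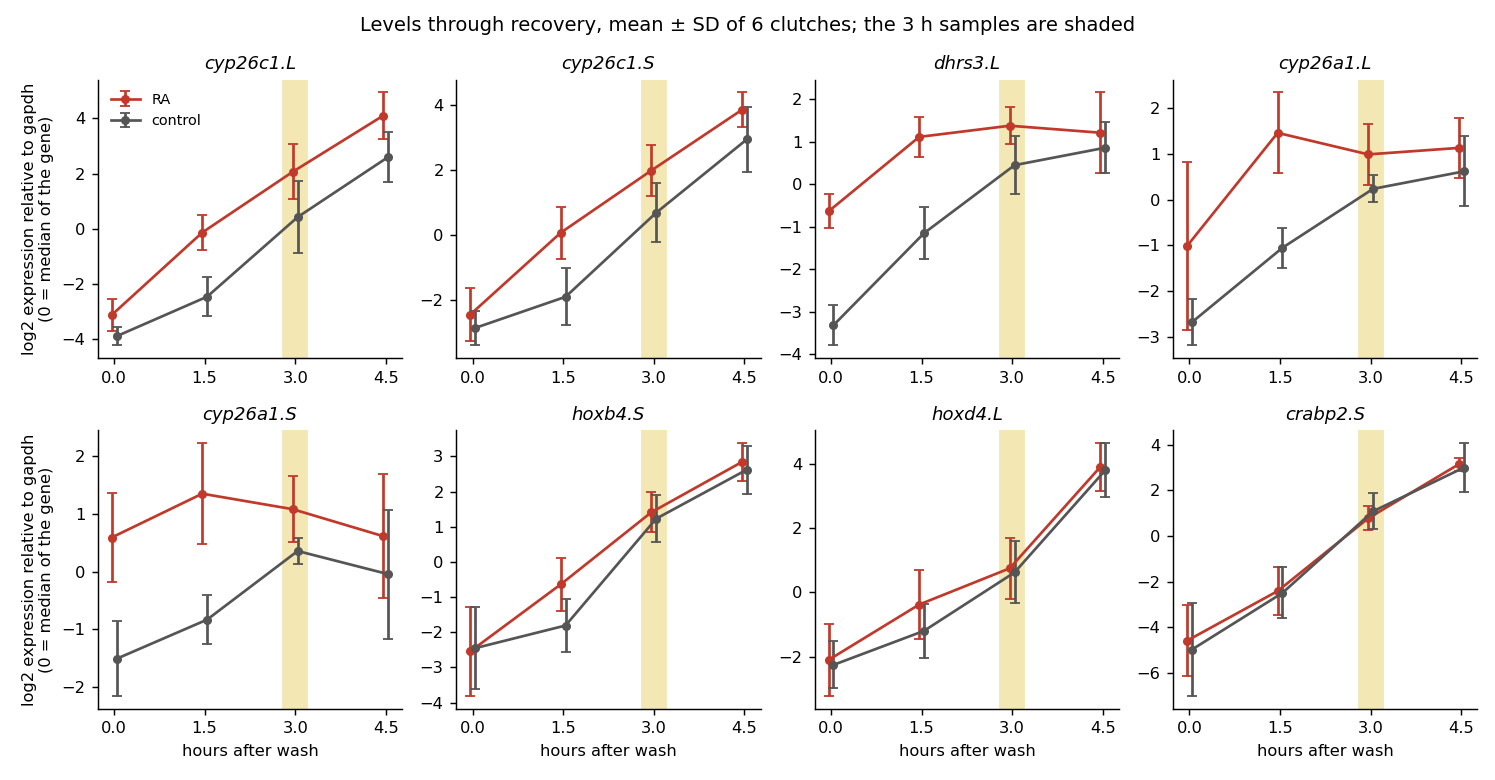
Mean and SD of 6 clutches in log2 relative to gapdh (y axis) for RA and control embryos at 0, 1.5, 3 and 4.5 h after the wash (x axis), for 8 genes, with 3 h shaded. The control curves of dhrs3.L and cyp26a1.L climb by 1.60 and 1.29 between 1.5 and 3 h while the RA curves change by 0.26 and -0.47, and both curves of cyp26c1.L rise.

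To place the RA embryos on the control time course, their levels at 3 h were set against the controls of the same clutches at 4.5 h. One gene (4.35%) was higher and 3 genes (13.0%) were lower. cyp26a1.S was higher by 1.12 (limma, adjusted p = 0.0425). hoxd4.L was lower, with -0.02 to 2.04 in the RA samples at 3 h against 2.83 to 4.87 in the 4.5 h controls, with no overlap (difference -3.04, limma, adjusted p = 1.17e-04). crabp2.S (-2.22, adjusted p = 0.00533) and hoxb4.S (-1.21, adjusted p = 0.0479) were also lower. The controls themselves rose between 3 and 4.5 h, by 3.17 in hoxd4.L, 1.915 in crabp2.S and 1.39 in hoxb4.S, and changed by -0.40 in cyp26a1.S. The calls of hoxd4.L and crabp2.S held with each clutch left out, whereas that of cyp26a1.S ended without G, H, I or L and that of hoxb4.S without any clutch but H. The count was 2 without G or I. cyp26c1.L differed by -0.54 (95% interval -1.49 to 0.42), cyp26c1.S by -0.96 (-1.88 to -0.03, adjusted p = 0.109) and dhrs3.L by 0.52 (0.03 to 1.01, adjusted p = 0.109). The mean level of cyp26c1.L in RA embryos at 3 h, 2.07, lay between the controls of 3 h (0.43) and of 4.5 h (2.61). That of hoxd4.L, 0.75, was near the controls of 3 h (0.62) and far below those of 4.5 h (3.79).

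The same RA samples were also compared with the DEAB samples of 3 h, which leaves the control samples out. Here 7 genes (30.4%) were higher under RA and 0 (0%) lower, and in 3 of 22 genes (13.6%) the groups did not overlap. Between DEAB and control embryos at 3 h limma called 0 genes, with 0 at an unadjusted p under 0.05. Still, DEAB lay below control by 0.49 in cyp26a1.S (lower in 6 of 6 clutches) and 0.46 in dhrs3.L (5 of 6). For cyp26a1.L, cyp26c1.S and cyp26c1.L DEAB minus control was -0.38, -0.34 and -0.07, lower in 4 of 6 clutches each. The median over all target genes was -0.08. RA minus DEAB differences include these shifts of DEAB from control. cyp26a1.L ran from 0.40 to 2.07 under RA and from -0.82 to 0.38 under DEAB (difference 1.13, limma, adjusted p = 0.0313). cyp26a1.S ran from 0.48 to 1.92 under RA and from -0.50 to 0.03 under DEAB (1.21, adjusted p = 0.0132). Neither copy had an RA sample within the DEAB range, whereas both overlapped with the controls. For dhrs3.L the RA samples exceeded DEAB by 1.03 to 1.73 in the 6 clutches, with a mean of 1.39 (adjusted p = 1.11e-05). The SD of these differences was 0.22, against 0.72 for RA minus control. That larger SD rests on clutch J, which stood at 2.34 against 0.36 to 0.98 in the other clutches. In RA minus DEAB clutch J was again highest, with 1.73 against 1.03 to 1.44 in the other clutches. cyp26c1.L and cyp26c1.S were higher than under DEAB by 1.71 and 1.64 (adjusted p = 0.00429 for each), with the smallest difference, 0.49, in clutch J for both copies. hoxb4.S and hoxb1.S differed by 0.54 and 0.84 and did not pass (adjusted p = 0.449 and 0.316). Without clutch L 4 genes were called and neither cyp26a1 copy passed, and cyp26a1.L also lost its call without I, J or K. Scaled to the panel mean, the split was 5 higher and 7 lower, and the cyp26a1 copies were not among the higher ones.

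**Figure D5:**
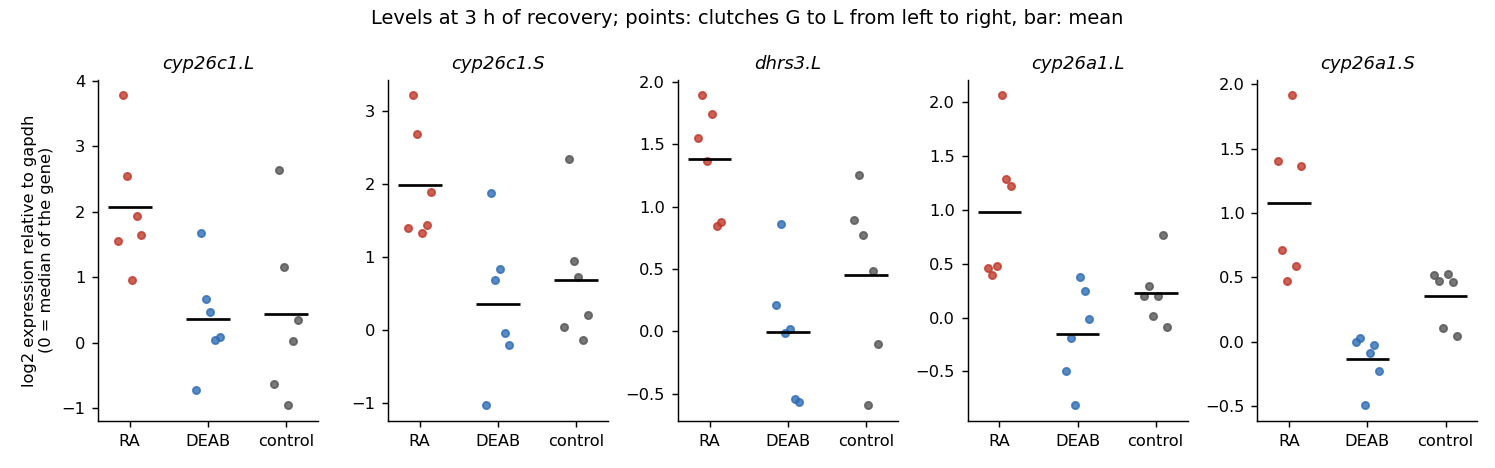
Levels at 3 h in RA, DEAB and control embryos (x axis) for 5 genes in log2 relative to gapdh (y axis), with 1 point per clutch, G to L from left to right, and a bar at the mean. The RA and DEAB points of cyp26a1.L and cyp26a1.S do not overlap, and the control point of clutch J at -0.60 is the lowest of dhrs3.L.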

How the data were processed

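As the study's methods describe, RNA of pooled embryos was reverse transcribed and preamplified 3 times, once each with L, S and all primers. The products were read with EvaGreen dye on a BioMark instrument, and the median Ct was kept. The authors deposited a table of Ct values and a table of log2 relative expression. All 1637 target values of the log2 table could be recomputed within 0.001 by subtracting the gene's Ct from that of gapdh and centring on the gene's median over the 72 samples. A single reference gene moves every target gene with it, and unequal amplification stretches differences. For hoxd3 and gapdh the methods list S members, but the names in the files (hoxd3.L, gapdh) were kept. All 24 gene IDs matched RefSeq (Xenopus_laevis_v10.1), which served for names and neighbours only, as the files name no build. Missing values (19, all of hoxd3.L) were dropped.

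Sample titles gave the groups and clutches. limma 3.58.1 in R 4.3.3 (lmFit and eBayes) was fitted to all 72 samples with 12 groups and clutch as a fixed block, with Benjamini-Hochberg adjustment over the 23 target genes and a threshold of 0.05. Samples were paired by clutch letter, since each clutch holds siblings from 1 female. The RA and control samples at 3 h deviated from their group means with a correlation of 0.54 on average (0.19 to 0.87) in the same clutch and of -0.11 between clutches. Pairs of copies were tested on their L minus S values, and gapdh with an exact sign-flip test over 6 clutches (64 assignments). Scripts were tested on simulated data.

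The members, gene lists, designs and alternatives were chosen with earlier results of these data known. Named are all genes past the threshold, the 6 others with the largest difference, and the cyp26a1, cyp26c1, dhrs3, aldh1a2, rdh10 and hoxb4 genes, with others given by list. Some genes are part of every fit and count but are not reported here singly. Alternatives were other blocks, references, sample sets, adjustments and thresholds, robust eBayes, weakly expressed or incomplete genes left out, exact tests per gene and each clutch left out.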

Additional observations from a re-analysis of the deposited data

Results flagged for a closer look

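In clutch J the RA minus control difference at 3 h stood apart from the other 5 clutches by Dixon's test in 3 genes: 2.34 for dhrs3.L (next 0.98), 1.79 for rdh10.S (next 0.08) and 0.94 for aldh1a2.L (next 0.07). Dixon's test was run on 60 groups, of 6 values each except for hoxd3.L with 4 or 5, and chance alone gives about 1 in 20. Each of these 3 values includes the gapdh shift of 0.89 cycles in clutch J. The part of the J control sample in them was not tested.

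The RA difference of dhrs3.L at 3 h differed from that at 0 h by -1.75 and from that at 1.5 h by -1.34 in limma. For hoxd3.L the estimate of 3 h minus 0 h was -9.68, from 0 h values in RA and control samples that share no clutch, and it cannot be read as a change within clutches.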

How the results depend on the processing

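For RA minus control at 3 h, with 4 genes called, the count was 0 without the replicate block, 0 with no reference gene, 0 with exact sign-flip tests (7 genes at an unadjusted p under 0.05, smallest adjusted p = 0.103), 1 with the panel mean as reference (cyp26c1.L, at 1.23), 8 with only the 12 samples compared and 7 with the 18 samples of 3 h. In the exact sign-flip test the 7 genes all had p = 0.03125, the smallest that 6 clutches allow. After adjustment that test could pass no gene unless most of the panel reached this value. Genes raised by RA are part of the panel mean, which moved the median of all genes to -0.25, against 0.16 with gapdh. Leaving out 1 clutch gave 0 to 4 genes, with 0 without J and 2 without L. After seeing the data, 2 more settings were tried. Without the J control sample the count was 0, with cyp26c1.L at 1.46 and dhrs3.L at 0.73 (adjusted p = 0.0558 for each). In the 12-sample limma fit without clutch J it was 4, with cyp26c1.L and cyp26c1.S at an adjusted p = 2.67e-04 and dhrs3.L at 0.0199. The other settings gave 4. Without the block, limma's adjusted p was 0.0828 for cyp26c1.L.

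For the change from 0 h, with 2 genes, the panel mean gave 4, and leaving out 1 clutch gave 2 to 4 (4 without G). For the change from 1.5 h, with 1 gene, the count was 0 without the replicate block, with the panel mean and with no reference gene, and 1 to 2 without 1 clutch (2 without G). Against controls of 4.5 h, with 4 genes, leaving out 1 clutch gave 2 to 4 (2 without G or I). For RA minus DEAB, with 7 genes, the panel mean gave 12 (5 higher, 7 lower), and leaving out 1 clutch gave 4 to 7 (4 without L). Over the single-gene differences at 3 h 368 settings kept their side of the threshold, 20 lost a call, 5 gained one and 0 calls reversed. Most of the 368 are settings of uncalled genes, which have no call to lose. In this count cyp26c1.L, cyp26c1.S and dhrs3.L alone had a call, and all 20 losses are theirs. The total therefore does not measure how stable these calls were. Without clutch J the values of aldh1a2.L, rdh10.L, rdh10.S, hoxd3.L, hoxd4.L and crabp2.L, none past the threshold, changed sign. Depth cannot be read from a Ct, and the median SE of 0.42 sets which differences could pass.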
